A study of Mus musculus with 7 samples.

Results

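Mouse colon 2 weeks after the last of 6 TNBS enemas was compared with saline colon. TNBS (trinitrobenzene sulphonic acid) is a hapten that, given into the bowel with ethanol, provokes an immune reaction and colitis. The comparison took 2 of the 7 arrays of the study, the TNBS pool of week 8 and the later saline pool, and covered 4316 of the 8251 genes on the array, those with a signal of at least 100 in the highest of the 6 pools. All mice were female CD-1 outbred animals, 10 to 12 weeks old at the start, and the piece of colon taken lay 4 ± 0.5 cm above the anal end. The week 8 pool was RNA of 4 mice given TNBS in ethanol. The later saline pool was RNA of 4 mice given saline, of which 2 belonged to week 8 and 2 to week 10. The other TNBS pools held 6 mice killed 3 days after the enemas (week 6), 5 mice at 4 weeks (week 10) and 4 mice at 6 weeks (week 12), and the week 6 saline pool held 5 mice and was hybridised on 2 arrays. No group received ethanol alone, so TNBS and ethanol cannot be told apart. Each group was 1 pool on 1 array, apart from the repeated week 6 saline array. The difference between week 8 and saline therefore has no replicate check and no test, and pooling hides the spread between mice.

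The colon surface is renewed from crypts, which give rise to absorptive colonocytes that take up water and ions and to goblet cells that fold, load with sugars and secrete the mucins of the mucus layer. Injured epithelium commonly switches on lectins of the Reg family and other antimicrobial proteins, and mucosal mast cells, which store the proteases Mcpt1 and Mcpt2 in granules, gather in the epithelium in some kinds of mucosal inflammation. Endoplasmic reticulum chaperones fold proteins that are to be secreted, and interferon-stimulated genes answer type I interferon and limit viruses.

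Signals are values of the Affymetrix software on a linear scale, brought to the same trimmed mean on each array, and a pair of signals written as one against another gives the week 8 pool first and the later saline pool after it. The week 8 array had the lowest median signal of the 7, 51.7 against 53.0 to 61.1 on the others and 58.1 on the later saline array. Of its probe sets, 49.2% lay under the floor of 50, the value to which lower signals were set before taking log2. Among the 4316 genes the week 8 array was the lowest of the 7 for 24.6% and the highest for 18.2%, while the other arrays were lowest for 6.60% to 15.7% and highest for 8.55% to 16.3%. The median gene was lower by 0.07 on the log2 scale at week 8 than in the later saline pool, and the shift went with the signal level. It was -0.15 for genes with a mean signal under 100 and 0.12 for those at 1000 and above. The plot of median differences by signal level shows that none of the 4 other comparisons drawn covered so wide a range. The 3'/5' ratio of beta-actin, a measure of RNA quality, was 0.801 at week 8 and 0.798 in the later saline pool, against 1.14 to 1.24 on the 3 arrays of week 6. That of Gapdh was 1.004 at week 8, the highest of the 7 arrays, and 0.897 in the later saline pool. The defining markers of colon epithelium and wall were detected in both pools. Krt20, a keratin of differentiated colonocytes, read 5086 against 4098, Car1, a colonocyte carbonic anhydrase, 4224 against 3833, Tff3, a goblet cell trefoil peptide, 7865 against 5397, and Actg2, the enteric smooth muscle actin, 4657 against 3469 in the week 8 and later saline pools.

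**Figure D1:**
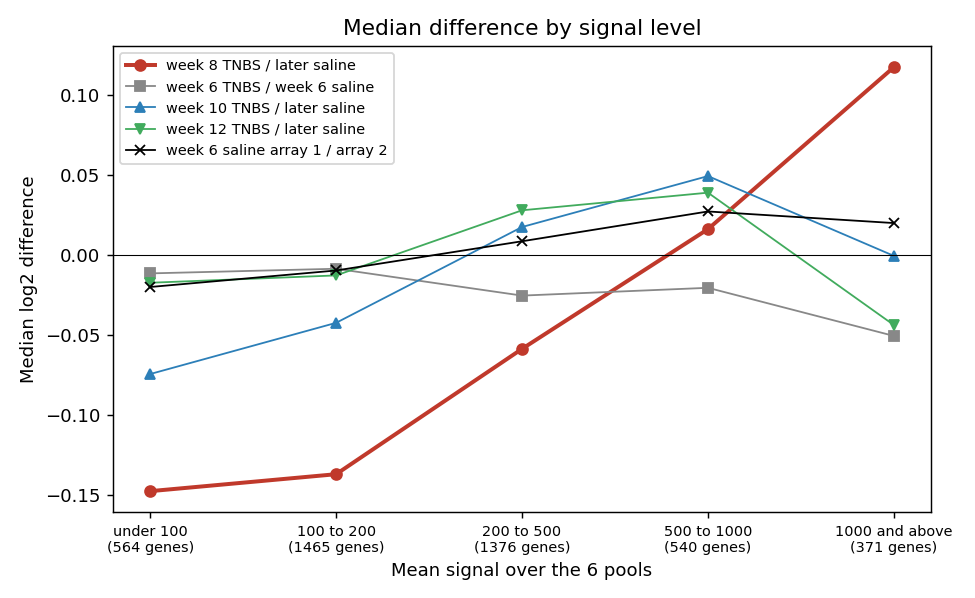
Median log2 difference (vertical axis) of genes in 5 bands of mean signal over the 6 pools (horizontal axis) for week 8 TNBS and 4 other comparisons, with lines joining the bands of a comparison. The week 8 line runs from -0.15 under a signal of 100 to 0.12 at 1000 and above.

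A gene was counted when the pools differed at least 2-fold. At week 8, the pool exceeded the later saline pool at least 2-fold in 66 of 4316 genes (1.53%), and 77 (1.78%) were lower by as much. The higher side reached further, with 23 genes past 3-fold, against 3 on the lower side. On 2 arrays of the same week 6 saline RNA, 15 genes (0.348%) and 16 genes (0.371%) differed 2-fold in either direction, and the SD of the log2 difference over genes was 0.29. The 2 saline pools, of different mice and ages, differed 2-fold for 37 genes (0.857%) upward and 41 (0.950%) downward in the later pool. The split of the counts depended on the scaling of the arrays. With equal array medians, which lifts the median gene by 0.17, 116 genes were higher and 32 lower, and with quantile normalization, a lift of 0.04, 76 were higher and 47 lower, so that 46.2% of the counted genes were higher as deposited, 78.4% with equal medians and 61.8% after quantile normalization. Genes counted as lower were mostly dim, since 49 of the 77 had a signal under 200 in the later saline pool. Against the week 6 saline pool, 3.29% of the 4316 genes were 2-fold higher at week 8 and 3.22% 2-fold lower, among them 45 of the 66 and 39 of the 77. These 2 comparisons share the week 8 array on which the genes were chosen, so that the shared counts are a description and no support. Of the higher genes, 6 entered the gene set through the week 8 pool alone. The gene lists used below were chosen with earlier results of these data known. Their counts and ranks beside all genes are therefore a description and no support.

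**Figure D2:**
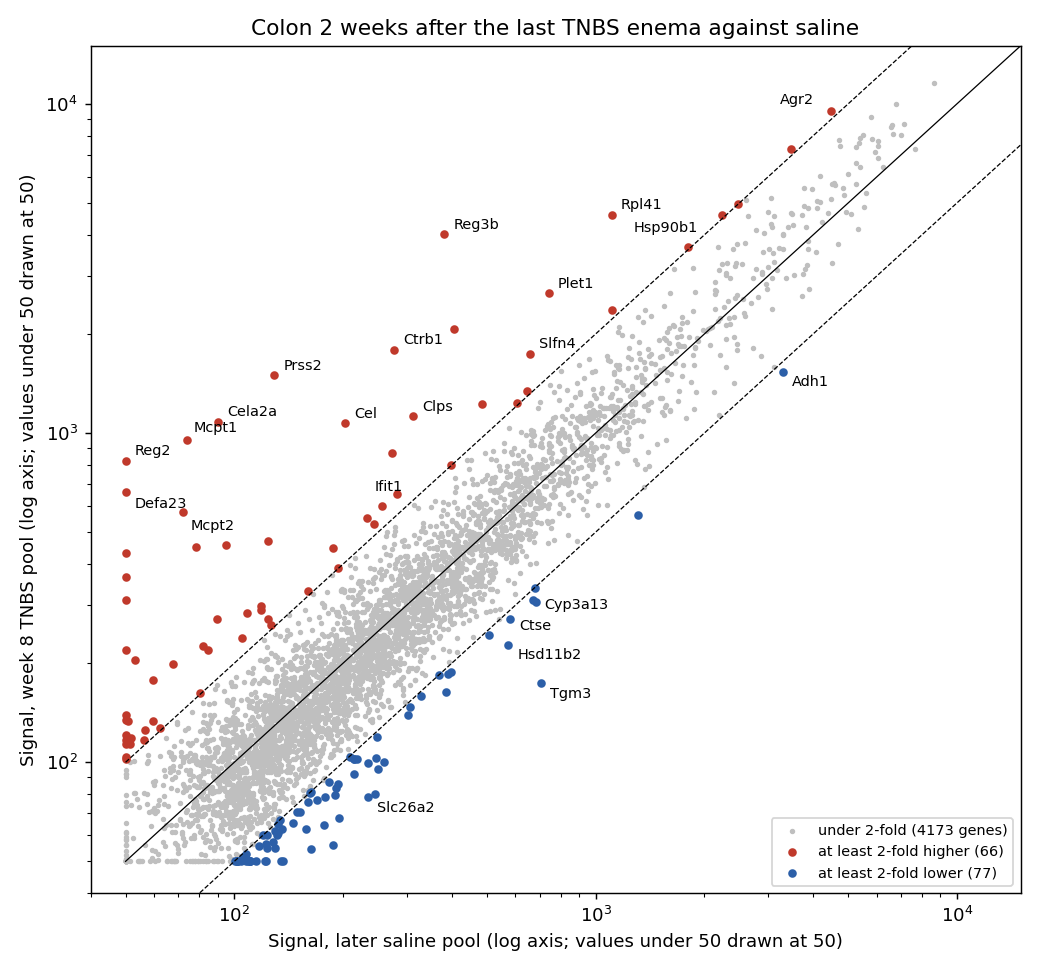
Signal of 4316 genes in the week 8 TNBS pool (vertical axis) against the later saline pool (horizontal axis), both log axes, with values under 50 drawn at 50. Red and blue points are the 66 higher and 77 lower genes counted at 2-fold, the solid line marks equal signal and the dashed lines 2-fold. The red points reach further from the line than the blue ones, whose fall the floor of 50 limits.

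Chymase-type proteases of mucosal mast cells were among the largest differences at week 8. Mcpt1 (mouse mast cell protease 1, a chymase) read 133 and 160.1 on the week 6 saline arrays and 73.9 in the later saline pool, and 1712, 955, 310.2 and 27 in the TNBS pools of weeks 6, 8, 10 and 12. The week 8 pool was the second highest of the 7 arrays and 12.9-fold above the later saline pool, and only the week 6 TNBS pool was higher. Mcpt2, the neighbouring protease of the same cells, read 575 at week 8 against 72.2 in the later saline pool, with 1292, 302 and 21.4 in the TNBS pools of weeks 6, 10 and 12 and 63.9 and 102 on the week 6 saline arrays, and was 7.97-fold higher. Cma2, a related chymase, read 456 against 94.6, or 4.82-fold higher. The sequences of these proteases are alike, so that probes for one may take up RNA of another. Of the 22 mast cell and eosinophil genes on the array, 6 passed the filter on low signals, of which 3 were 2-fold higher (background 1.53%). Gata2, a transcription factor of the mast cell lineage, was the 1 member 2-fold lower (background 1.78%), by at least 2.03-fold with the week 8 pool under the floor. Kit, the receptor for stem cell factor on mast cells and pacemaker cells, read 137 against 159, and Tpsb2, a tryptase of connective tissue mast cells, 86.3 against 148. Other defining markers were dim in both pools, with Cpa3 at 47.6 against 12.8, Fcer1a at 24.3 against 19.9 and Mcpt4, a connective tissue mast cell chymase, at 0.9 against 1.8. The summed signal of all 22 genes was 2548 at week 8, 950.4 in the later saline pool and 4414 at week 6. In such tissue pools, a change in the number of cells of a type and a change in RNA per cell cannot be told apart.

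Lectins of the Reg family were higher as well. Reg3b, a secreted lectin that binds bacteria, read 162 and 170.4 on the week 6 saline arrays and 382 in the later saline pool, and 2095, 4017, 4589 and 201 in the TNBS pools of weeks 6, 8, 10 and 12. It was 10.5-fold higher at week 8, and the week 10 pool was higher still. The second probe set of Reg3b read 907 against 68.3. Reg2 was under the floor in every pool other than those of weeks 6 and 8, with 823 at week 8 against 2.6 in the later saline pool, with 289.8, 15.7 and 6 in the TNBS pools of weeks 6, 10 and 12 and 3.6 and 5.8 on the week 6 saline arrays, a difference of at least 16.5-fold. Reg1 read 451 against 78.1 and 439 at week 6, or 5.77-fold higher at week 8, and Reg3g, another bactericidal lectin, read 199 against 67.6, or 2.94-fold. These 4 Reg genes were the only members of the Reg and antimicrobial list, of 14 that passed the filter, to differ 2-fold (background 1.53%). The other members of the list stayed within 2-fold. Retnlb, a goblet cell bactericidal protein, read 7464 against 4759, Pigr, which carries immunoglobulin A across the epithelium, 9152 against 5776, and Dmbt1, a mucosal scavenger protein, 4174 against 5318. Pla2g2a, a secreted antibacterial phospholipase, read 3309 at week 6 and 598 against 587 at week 8. The list had a median log2 difference of 0.25 at week 8, beside -0.07 for all genes, and -0.02 with the week 6 saline pool as control. Reg1 and Reg2 are also products of the acinar cells of the pancreas, whose digestive enzymes were higher in the same pool. The source of the Reg1 and Reg2 signal was not tested.

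Genes of pancreatic digestive enzymes had the highest median of the 42 lists. The lists were chosen with earlier results of these data known, so that this rank and the counts are a description and no support. Of 20 list members on the array, 14 passed the filter, and 9 of these (background 1.53%) were at least 2-fold higher and none 2-fold lower, with a median log2 difference of 1.72. Tff2, 1 of the 9, passed the filter through the week 8 pool alone and had to be high there. Of the other 13 members 8 were 2-fold higher, with a median of 1.85. Prss2, an anionic trypsinogen, read 16.2 and 3.2 on the week 6 saline arrays and 129 in the later saline pool, and 1126, 1502, 114 and 3.2 in the TNBS pools of weeks 6, 8, 10 and 12. It was 11.6-fold higher at week 8, with the week 6 TNBS pool next and the remaining arrays at 129 or below. Cela2a, a pancreatic elastase, read 1084 at week 8 against 90.0 in the later saline pool, with 296, 62.8 and 32.7 in the TNBS pools of weeks 6, 10 and 12 and 63.1 and 27.2 on the week 6 saline arrays. Its week 8 value was 12.0-fold above the later saline pool and stood clear of all 6 other arrays. Chymotrypsinogen gene Ctrb1 was 6.48-fold higher, Cel, the bile salt-dependent lipase, 5.28-fold, the lipase relative Pnliprp1 at least 7.31-fold, Clps, the lipase cofactor colipase, 3.60-fold, and Ctrl, a chymotrypsin-like protease, 3.03-fold. Pnliprp2, a lipase for galactolipids and milk fat, read 80.3 and 131 on the week 6 saline arrays and 53.1 in the later saline pool, and 44.4, 204, 40.9 and 19.6 in the TNBS pools of weeks 6, 8, 10 and 12. Tff2, a trefoil peptide of the stomach that was also in this list, read 134 against 8.8 and was under the floor on every array but that of week 8. The remaining 5 members have signals of 231 or above on every array, and none differed 2-fold. They include Zg16, a mucus lectin, at 7588 against 5345, and Sycn, a zymogen granule protein, at 2602 against 3716. Of the 6 members that did not pass the filter, Ins2, the gene for insulin, read 3.1 against 3.4, Iapp, the islet peptide amylin, 1.5 against 5.5, and Rbpjl, an acinar transcription factor, 24.3 against 16.2. The summed signal of all 20 was 24837 at week 8, 16759.7 in the later saline pool and between 14702 and 21356 on the other arrays. The part of pancreatic RNA in these values was not tested.

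Defensin genes that Paneth cells of the small intestine express were among the higher genes at week 8. Defa23, an alpha-defensin, read 222 and 218 on the week 6 saline arrays and 34.2 in the later saline pool, and 29.7, 664, 62.7 and 8.3 in the TNBS pools of weeks 6, 8, 10 and 12. The week 8 pool was at least 13.3-fold above the later saline pool, and the week 6 saline arrays held the next values. Defa35 read 219 at week 8 against 15.3 in the later saline pool, with 21.4, 35.4 and 6.5 in the TNBS pools of weeks 6, 10 and 12 and 21.4 and 75.5 on the week 6 saline arrays, or at least 4.37-fold higher. It entered the gene set through the week 8 pool alone, so that it had to exceed the other pools there. Alpha-defensin genes are near-identical copies, so that these probe sets can take up RNA of several of them.

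**Figure D3:**
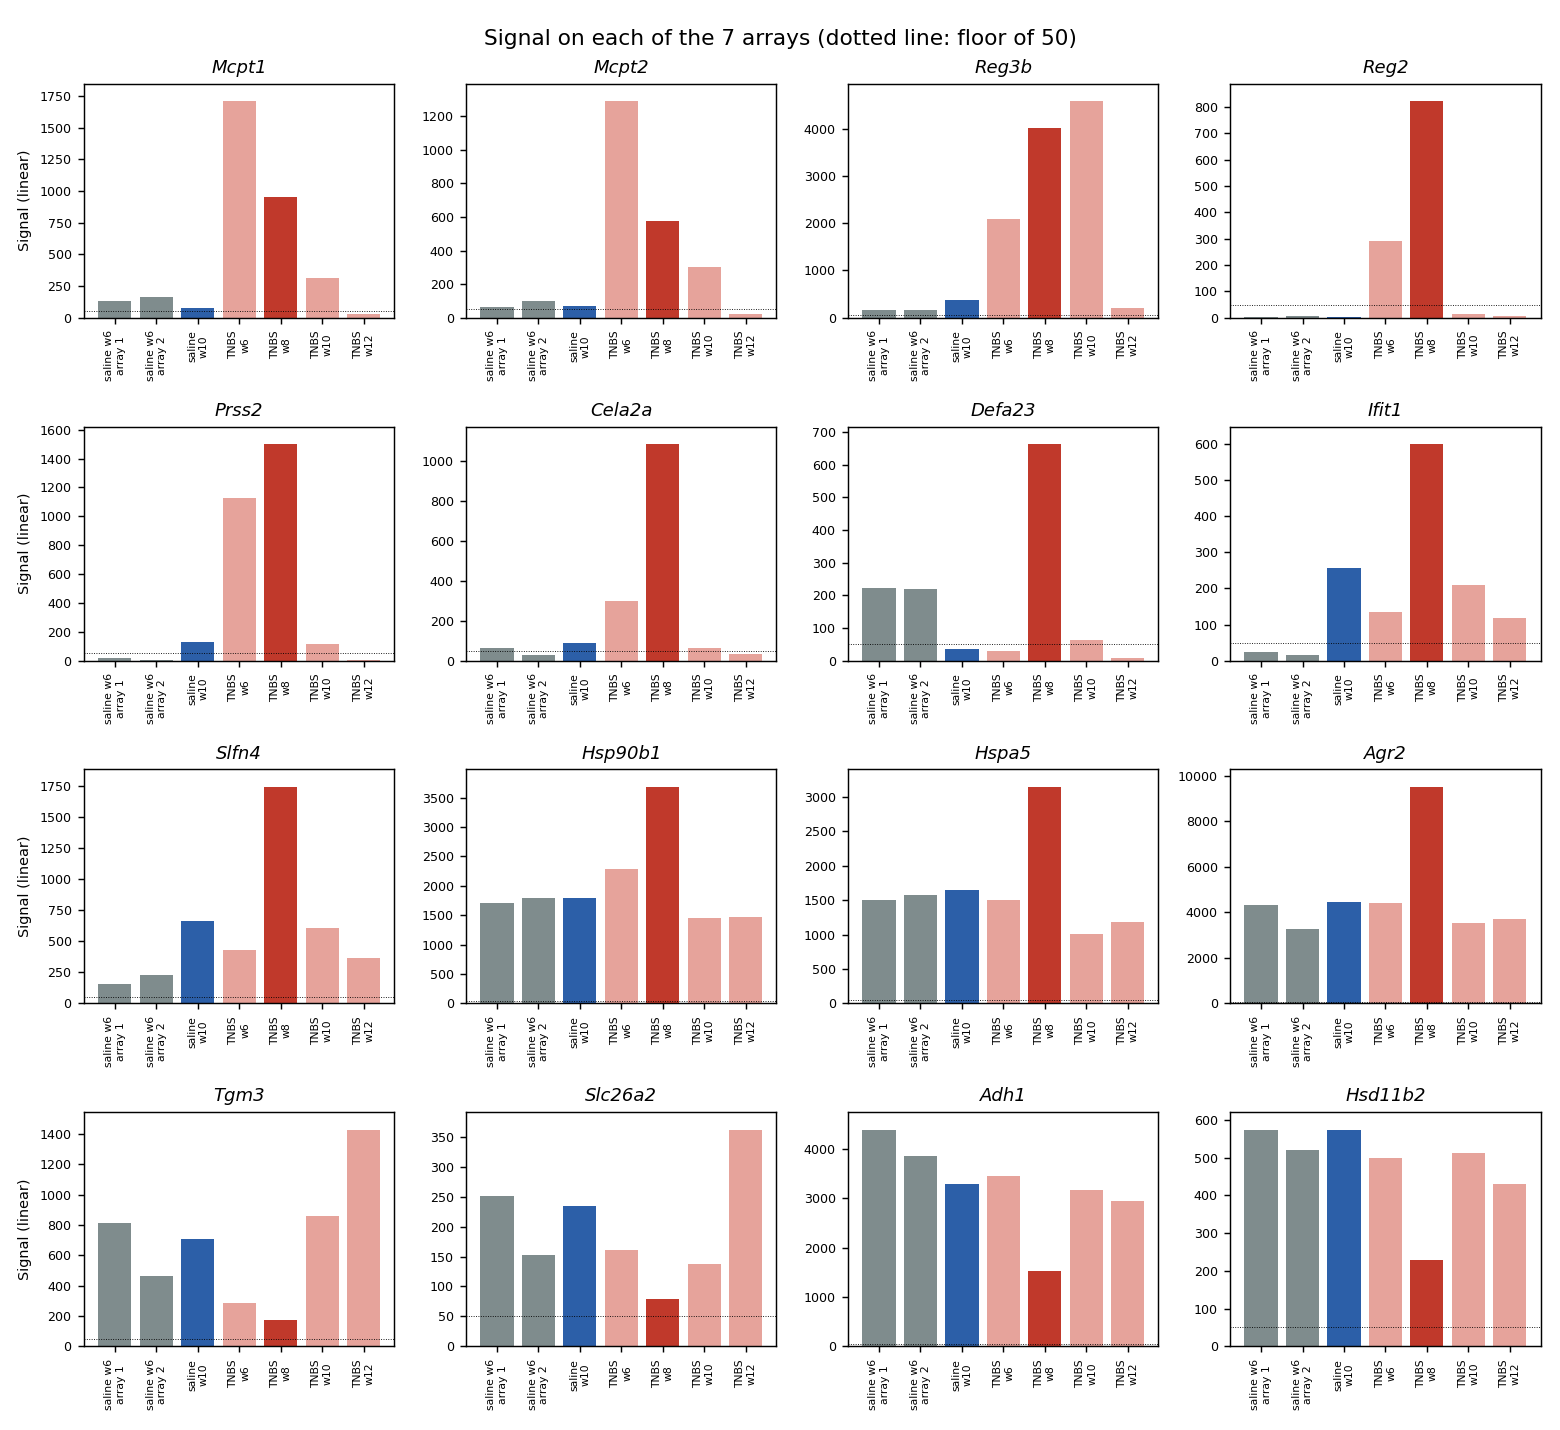
Signal on a linear scale (vertical axes, from 0) of 16 genes on each of the 7 arrays, with saline arrays in grey and blue, the week 8 TNBS pool in dark red and the other TNBS pools in light red. The week 8 bar is the highest for Reg2, Prss2, Cela2a, Defa23, Ifit1, Slfn4, Hsp90b1, Hspa5 and Agr2 and the lowest for Tgm3, Slc26a2, Adh1 and Hsd11b2.

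Chaperones and translocation factors of the endoplasmic reticulum were mostly higher at week 8. Of 35 measured members, 31 lay above the later saline pool and 4 below, beside 42.8% of all genes above it, and 3 were at least 2-fold higher (background 1.53%). The median was 0.33, and 0.32 after the shift with signal level was removed. The week 8 array was the highest of the 7 for 19 of the 35 members, beside 18.2% of all genes. Hspa5 (BiP, the main Hsp70 chaperone of the compartment) read 1509 and 1574 on the week 6 saline arrays and 1647 in the later saline pool, and 1503, 3147, 1014 and 1184 in the TNBS pools of weeks 6, 8, 10 and 12. The 6 other arrays lay between 1014 and 1647, and the week 8 pool was 1.91-fold above the later saline pool. Hsp90b1 (Grp94, its Hsp90) read 3684 at week 8 against 1797 in the later saline pool, with 2294, 1453 and 1478 in the TNBS pools of weeks 6, 10 and 12 and 1711 and 1792 on the week 6 saline arrays, and was 2.05-fold higher. The disulphide isomerases Pdia4 and Pdia3 were 2.18-fold and 2.08-fold higher, with signals of 529.6 against 243 and 1347 against 648. Dnajb11, a cochaperone of Hspa5, was 1.96-fold higher and Dnajb9, another, 1.73-fold. Smaller differences were seen in Ssr1 and Ssr3 of the translocon-associated complex, with log2 differences of 0.68 and 0.67, and in Manf, a secreted stress protein, with 0.56. Not all members were higher. P4hb, the protein disulphide isomerase PDI, read 147 against 173 and Canx, the lectin chaperone calnexin, 142 against 156. The second, dimmer probe set of Canx went the other way, at 89.1 against 60.8, a log2 difference of 0.55. Transcription factors of the stress response were slightly above the later saline pool, with Xbp1, of the unfolded protein response, at 735 against 678 and Atf4, which answers stress at the level of translation, at 674 against 614. Hyou1 and Calr, which encode further chaperones, were under the floor on the arrays of both pools, at 1.1 against 1.6 and 9.6 against 2.3.

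Promoters of these members were searched for the endoplasmic reticulum stress element, a site for the factors Atf6 and NF-Y, in the 250 bases before the start site on both strands, with the letters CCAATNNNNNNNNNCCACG. A match lay in 6 of the 28 members with a promoter in the RefSeq table (21.4%), against 9 of 3497 genes of the whole set (0.257%) and 0.113% of all 32851 promoter entries. On the probe sets used, the members with a match had log2 differences between -0.14 (Canx, whose second probe set was higher) and 1.04 (Hsp90b1). Pdia6, also with a match, had 0.06, so that a match did not go with a difference in every case. The following 4 sequences, from RefSeq on GRCm38.p6, run from 250 bases before the start site to the base before it, in the direction of the gene, and are shown because they hold the element in members with high, middle and low values. Capitals mark the matches.
Hsp90b1, chr10:86705445-86705694, minus strand: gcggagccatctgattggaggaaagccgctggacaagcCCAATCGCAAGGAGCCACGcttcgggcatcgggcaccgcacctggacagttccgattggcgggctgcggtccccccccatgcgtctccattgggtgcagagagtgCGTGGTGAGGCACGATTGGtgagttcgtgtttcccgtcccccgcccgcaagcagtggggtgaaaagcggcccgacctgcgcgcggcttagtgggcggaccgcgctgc
Hspa5, chr2:34771840-34772089, plus strand: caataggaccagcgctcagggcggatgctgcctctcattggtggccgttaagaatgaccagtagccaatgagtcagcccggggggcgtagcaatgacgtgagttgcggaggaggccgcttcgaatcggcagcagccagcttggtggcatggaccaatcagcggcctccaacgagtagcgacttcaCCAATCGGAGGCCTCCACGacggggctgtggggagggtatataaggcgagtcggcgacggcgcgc
Dnajc3, chr14:118937682-118937931, plus strand: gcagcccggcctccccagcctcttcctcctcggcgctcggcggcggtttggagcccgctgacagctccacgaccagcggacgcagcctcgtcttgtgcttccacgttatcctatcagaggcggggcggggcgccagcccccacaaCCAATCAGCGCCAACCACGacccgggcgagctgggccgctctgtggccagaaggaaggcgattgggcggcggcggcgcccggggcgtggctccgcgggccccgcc
Canx, chr11:50325674-50325923, minus strand: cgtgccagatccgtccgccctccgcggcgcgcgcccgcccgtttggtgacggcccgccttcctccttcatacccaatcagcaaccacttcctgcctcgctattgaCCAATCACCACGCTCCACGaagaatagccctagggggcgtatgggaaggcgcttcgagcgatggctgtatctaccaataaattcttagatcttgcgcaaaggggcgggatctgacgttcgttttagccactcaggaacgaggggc
The match in Hspa5 begins 65 bases before the start site, that in Dnajc3 105 bases and that in Canx 145 bases before it, and Hsp90b1 holds a match on each strand.

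Products of goblet cells gave a mixed picture. Of 25 measured members, 16 were above the later saline pool and 9 below, beside 42.8% of all genes above it. Of the 16 and the 9, 3 (background 1.53%) and 2 (background 1.78%) differed at least 2-fold. The 3 include Tff2, which passed the filter through the week 8 pool alone. Agr2, a disulphide isomerase that goblet cells need to make the mucin Muc2, read 4336 and 3265 on the week 6 saline arrays and 4476 in the later saline pool, and 4434, 9523, 3532 and 3722 in the TNBS pools of weeks 6, 8, 10 and 12. The week 8 value was 2.13-fold above the later saline pool and more than any other array. Spink4, a goblet cell peptide, read 4974 at week 8 against 2481 in the later saline pool, with 5589, 3209 and 2371 in the TNBS pools of weeks 6, 10 and 12 and 6139 and 5732 on the week 6 saline arrays, so that week 8 was 2.00-fold above the later saline pool but below the week 6 saline arrays. The same order held for Fcgbp, a mucus protein, with 10519 and 9074 on the week 6 saline arrays and 4709 in the later saline pool, and 5582, 7788, 4002 and 3696 in the TNBS pools of weeks 6, 8, 10 and 12. Measured against the week 6 saline pool the median of the list was -0.14, in place of 0.21. Ern2, the stress sensor IRE1 beta of goblet cells, read 75.5 against 160.1 and was 2.12-fold lower than in the later saline pool. Slc26a2, the other lower member, is described with the sulphate genes.

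Type I interferon response genes were also mostly higher. Of 17 measured members, 15 were above the later saline pool and 2 below, beside 42.8% of all genes above it. Among the 17, 2 were at least 2-fold higher (background 1.53%). The week 8 array was the highest of the 7 for 12 of the 17, beside 18.2% of all genes. The median log2 difference was 0.50. Ifit1, which binds viral RNA, read 24.3 and 16.3 on the week 6 saline arrays and 256 in the later saline pool, and 134, 601, 209 and 119 in the TNBS pools of weeks 6, 8, 10 and 12. It was 2.35-fold higher at week 8, and the later saline pool was itself the second highest array and the week 6 saline arrays were under the floor. Ifi27l2a, an interferon-induced membrane protein, read 448 at week 8 against 187 in the later saline pool, with 137, 136 and 116 in the TNBS pools of weeks 6, 10 and 12 and 71.5 and 54.2 on the week 6 saline arrays, or 2.40-fold higher. Isg15, a ubiquitin-like modifier, read 193 and 176 on the week 6 saline arrays and 695 in the later saline pool, and 302, 1194, 445 and 267 in the TNBS pools of weeks 6, 8, 10 and 12. The difference from the later saline pool was 1.72-fold. Usp18, which removes Isg15 from proteins, was 1.98-fold higher, at 281 against 142, and Ifit2, a relative of Ifit1, 1.99-fold, at 371 against 186. Slfn4, a myeloid gene that interferon induces and that was not in the list, read 1742 at week 8 against 659 in the later saline pool, with 427, 609.5 and 363 in the TNBS pools of weeks 6, 10 and 12 and 157 and 226 on the week 6 saline arrays, or 2.64-fold higher. Lgals3bp, a secreted binding partner of galectin 3, was the member farthest below, at 325 against 598. The control moved these values, since the later saline pool lay above the week 6 saline pool by a median of 0.83 over the list. Against the week 6 saline pool the median at week 8 was 1.26. Guanylate-binding and other genes of the interferon gamma list had no member 2-fold higher or lower among 25, and a median of 0.13.

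The interferon-stimulated response element, a promoter motif of many interferon-induced genes, was searched with the letters GAAANNGAAA on both strands of the same promoters. It lay in 4 of the 14 members with a promoter (28.6%), namely Gbp3, Ifit1, Isg15 and Rsad2, against 3.09% of the 3497 genes and 2.98% of all entries. The members with a match had a median log2 difference of 0.63 and the 10 without one 0.39, while the 108 genes with a match in the whole set had a median of 0.00. The promoters of 3 of the 4 members with a match are given in the same form, with the matches in capitals. Their week 8 log2 differences run from 0.47 to 1.23, and Gbp3, the member not shown, had 0.33. A run of capitals may hold overlapping matches.
Ifit1, chr19:34640639-34640888, plus strand: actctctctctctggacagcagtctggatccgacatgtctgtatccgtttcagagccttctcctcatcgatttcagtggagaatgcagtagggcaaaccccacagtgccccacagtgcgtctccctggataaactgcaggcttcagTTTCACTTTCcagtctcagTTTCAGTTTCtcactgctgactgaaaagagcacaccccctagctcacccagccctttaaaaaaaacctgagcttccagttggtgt
Isg15, chr4:156200819-156201068, minus strand: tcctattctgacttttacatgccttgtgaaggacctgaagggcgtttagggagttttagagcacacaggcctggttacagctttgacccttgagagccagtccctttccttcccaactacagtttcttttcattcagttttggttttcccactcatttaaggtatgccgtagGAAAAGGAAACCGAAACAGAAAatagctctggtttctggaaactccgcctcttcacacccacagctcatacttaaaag
Rsad2, chr12:26456453-26456702, minus strand: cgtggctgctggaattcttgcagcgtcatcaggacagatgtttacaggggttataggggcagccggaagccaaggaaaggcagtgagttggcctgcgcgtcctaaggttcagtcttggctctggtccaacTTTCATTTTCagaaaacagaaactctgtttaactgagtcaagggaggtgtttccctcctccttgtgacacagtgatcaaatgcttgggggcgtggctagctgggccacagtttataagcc
The nearest match begins 85 bases before the start site in Ifit1, 66 in Isg15 and 120 in Rsad2, the gene for viperin.

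**Figure D4:**
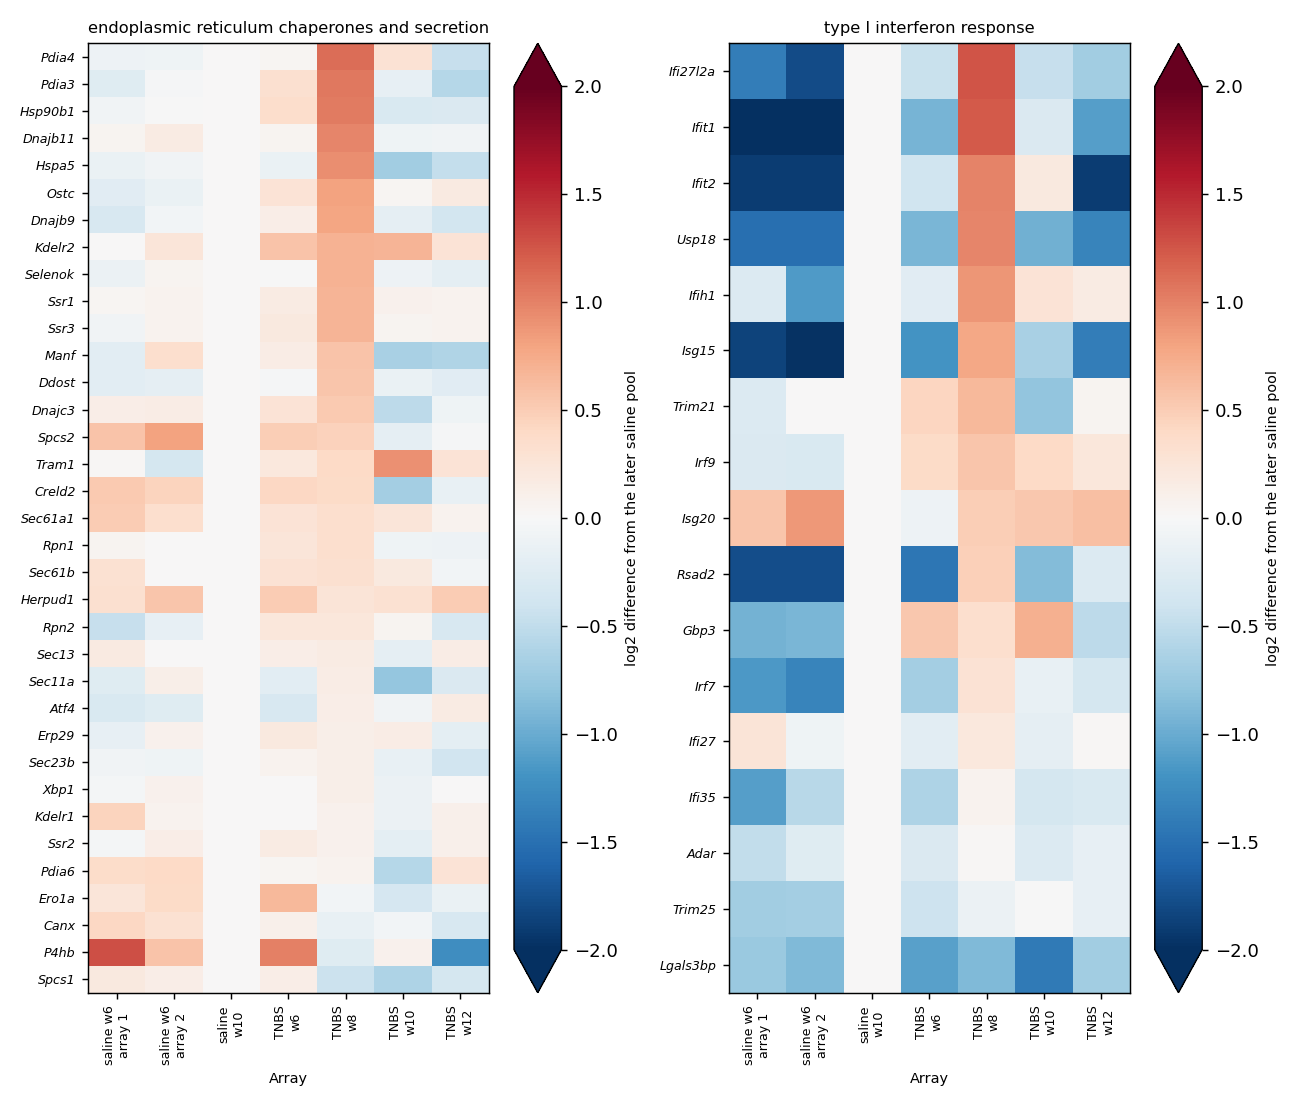
Heat map of the log2 difference of each array (columns) from the later saline pool (white by definition) for 35 endoplasmic reticulum genes and 17 type I interferon genes (rows), ordered by the week 8 value. The week 8 column is red for 31 of 35 and 15 of 17 genes, and the week 6 saline columns are blue for Ifit1, Ifit2, Usp18, Isg15 and Rsad2.

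Lists of neutrophil, macrophage and T and NK lymphocyte genes had median log2 differences of 0, 0.10 and -0.06 at week 8. Of 11 neutrophil and acute inflammation genes none was 2-fold different, and 4 had a difference of 0 with the floor applied. S100a8 and S100a9, the calprotectin subunits of neutrophils, read 202 and 159 at week 6, and 28.1 against 19.2 and 19.1 against 15.7 at week 8, all the latter under the floor. Il1b, the cytokine interleukin 1 beta, was likewise under the floor in both pools. Among 25 macrophage and monocyte genes 1 was 2-fold higher, namely Cd53, a leukocyte tetraspanin, at 284 against 108. Ccl8, a monocyte chemokine, read 219 against 84.8 and 279 at week 6, and was 2.58-fold higher at week 8. Apoe, a lipid carrier of macrophages, was lower, at 293 against 542. Genes of MHC class II, which present antigen, were below the later saline pool for 8 of 12 members, not far from the share of all genes, 2440 of 4316. H2-Aa read 1181 against 1872 and H2-Ab1 191 against 318, while Cd74, their chaperone, read 2235 against 2342. H2-Ea, an alpha chain that some mouse MHC haplotypes do not make, was the 1 member 2-fold higher, with 60.5 and 45 on the week 6 saline arrays and 20.9 in the later saline pool, and 50.4, 310.5, 79.6 and 166 in the TNBS pools of weeks 6, 8, 10 and 12. B2m, the light chain of MHC class I, read 5116 against 2606, and was 1.96-fold higher. No gene of 9 for T and NK lymphocytes or 17 for B cells differed 2-fold. Jchain, which joins immunoglobulin A, read 1666 against 1080.5.

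Colonocyte genes held the largest lower value, without a shift of the list. Tgm3, a transglutaminase that cross-links proteins, read 809.8 and 464 on the week 6 saline arrays and 704 in the later saline pool, and 285, 174, 862 and 1428 in the TNBS pools of weeks 6, 8, 10 and 12. It was 4.06-fold lower at week 8, below every other array, with the week 6 TNBS pool next and the week 12 pool highest. Hsd11b2, which inactivates glucocorticoids in cells that respond to aldosterone, read 228 at week 8 against 573 in the later saline pool, with 500.5, 512 and 432 in the TNBS pools of weeks 6, 10 and 12 and 575 and 520.3 on the week 6 saline arrays, or 2.51-fold lower. Adh1, the main alcohol dehydrogenase, read 4397 and 3855 on the week 6 saline arrays and 3303 in the later saline pool, and 3451, 1538, 3169.5 and 2953 in the TNBS pools of weeks 6, 8, 10 and 12. The 6 other arrays lay at 2953 or above, and the week 8 value was 2.15-fold lower than the later saline pool. Edn1, the peptide endothelin 1, and Sult1a1, a phenol sulphotransferase, were 2.52-fold and 2.62-fold lower, at 62.8 against 158 and 95.3 against 249. These were the 5 members of 34 that were 2-fold lower (background 1.78%), and none was 2-fold higher. The other members spread to both sides, 15 above and 19 below in all, with a median of -0.12 beside -0.07 for all genes, and 0.06 with the week 6 saline pool as control. Fabp2, the intestinal fatty acid-binding protein, read 2102 at week 8 against 1159 in the later saline pool, with 241, 1035 and 763 in the TNBS pools of weeks 6, 10 and 12 and 539 and 539 on the week 6 saline arrays, and was the highest of the list. Aqp4, a water channel, was 1.68-fold higher, and Hnf4a, a transcription factor of enterocytes, 1.73-fold lower at 119 against 206. Carbonic anhydrases Car1, Car2 and Car4 had log2 differences of 0.14, -0.24 and 0.12.

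Sulphate and phosphate genes had the lowest median of the 42 lists, -0.54 over 10 measured members, with 4 at least 2-fold lower (background 1.78%) and none 2-fold higher. This list, too, was chosen with earlier results of these data known. With the week 6 saline pool as control the median was -0.41. Slc26a2, the sulphate transporter of colonocytes and goblet cells, read 78.3 at week 8 against 235 in the later saline pool, with 161, 137 and 362 in the TNBS pools of weeks 6, 10 and 12 and 251 and 153 on the week 6 saline arrays. The week 8 value was 3.00-fold lower and the lowest of the 7. Slc34a2, a sodium-dependent phosphate carrier, read 122 and 118 on the week 6 saline arrays and 195 in the later saline pool, and 101, 67.6, 144 and 166 in the TNBS pools of weeks 6, 8, 10 and 12. It was 2.88-fold below the later saline pool, which was the highest array for this gene. Gdpd3, a phosphodiesterase of lysophospholipids, read 80.0 at week 8 against 245 in the later saline pool, with 122, 191 and 44 in the TNBS pools of weeks 6, 10 and 12 and 103 and 106 on the week 6 saline arrays. Its log2 difference from the week 6 saline pool was -0.39, and the week 12 TNBS pool was lower still. The enzymes that make the sulphate donor, Papss1 and Papss2, read 475 against 768 and 396 against 493.

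Drug and xenobiotic enzymes were lower for 23 of 37 measured members and higher for 13, not far from the share of all genes, 2440 of 4316 lower. Of the 37 members, 9 were at least 2-fold lower (background 1.78%) and none 2-fold higher. The median was -0.27, and -0.08 with the week 6 saline pool as control, which the later saline pool exceeded by a median of 0.20 over the list. Beside Adh1 and Sult1a1 the 9 were glutathione transferases Gstm2, Gsta4 and Gstt1, cytochromes Cyp2c38, Cyp2c39 and Cyp3a13, and the carboxylesterase Ces1d, which was under the floor both at week 8 and on the week 6 saline arrays. Gstm2 read 262 and 291 on the week 6 saline arrays and 385 in the later saline pool, and 268, 163, 208 and 851 in the TNBS pools of weeks 6, 8, 10 and 12, a difference of 2.36-fold between the pools compared. Cyp3a13, the intestinal member of the CYP3A family, read 307 at week 8 against 682 in the later saline pool, with 315, 438 and 286 in the TNBS pools of weeks 6, 10 and 12 and 590.2 and 410.2 on the week 6 saline arrays, so that the pools of weeks 6, 8 and 12 all lay between 286 and 315 and the later saline pool was the highest array. Cyp2c39 was under the floor at week 8 and was at least 2.04-fold lower, at 28.4 against 102. Most of the remaining members were within 2-fold, such as Gstm1 at 1816 against 2733 and Mgst3, a microsomal transferase, at 4004 against 3305. Fatty acid oxidation genes had no 2-fold member among 25 and a median of -0.23, which turned to 0.16 with the week 6 saline pool as control. Acaa2, the mitochondrial thiolase, read 1418 against 2416.

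Hormone and nerve genes lay below the later saline pool as lists, and below saline in the other TNBS comparisons too. The hormone list had medians of -0.22, -0.38 and -0.35 at weeks 6, 10 and 12, and the nerve list -0.47, -0.21 and -0.47. The comparisons of weeks 10 and 12 use the same later saline pool. At week 8, 9 of 10 enteroendocrine genes were below that pool, beside 2440 of all 4316 genes. The 1 that was 2-fold lower (background 1.78%) was Pam, which amidates peptide hormones, at 103 against 247. Ddc, which makes serotonin and dopamine, read 217 against 413, and Chga, the granin chromogranin A, 119 against 134. Of 13 enteric neuron, glia and pacemaker genes 12 were below, and none was 2-fold lower. Mbp, the myelin basic protein, read 98.8 against 169 and Tubb3, a neuronal tubulin, 268 against 396. The members were dim, with a median mean signal of 117, and the median of the nerve list went from -0.40 to -0.18 when the shift with signal level was removed. For the hormone genes it went from -0.46 to -0.44. The reverse held at the bright end. Respiratory chain and ATP synthase subunits were above the later saline pool for 40 of 56, beside 42.8% of all genes. Their median was 0.18, and 0.06 after that removal. Atp5j, a coupling subunit of the synthase, was the 1 member 2-fold higher, at 2369 against 1107. Smooth muscle genes had no 2-fold member among 21, and collagens and structural matrix had 1 among 36, Lama3, a laminin chain of the epithelial basement membrane, at 70.4 against 152. Ctse, the aspartic protease cathepsin E, read 952 and 918 on the week 6 saline arrays and 581 in the later saline pool, and 754, 272, 567 and 1785 in the TNBS pools of weeks 6, 8, 10 and 12, and was 2.13-fold lower at week 8.

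**Figure D5:**
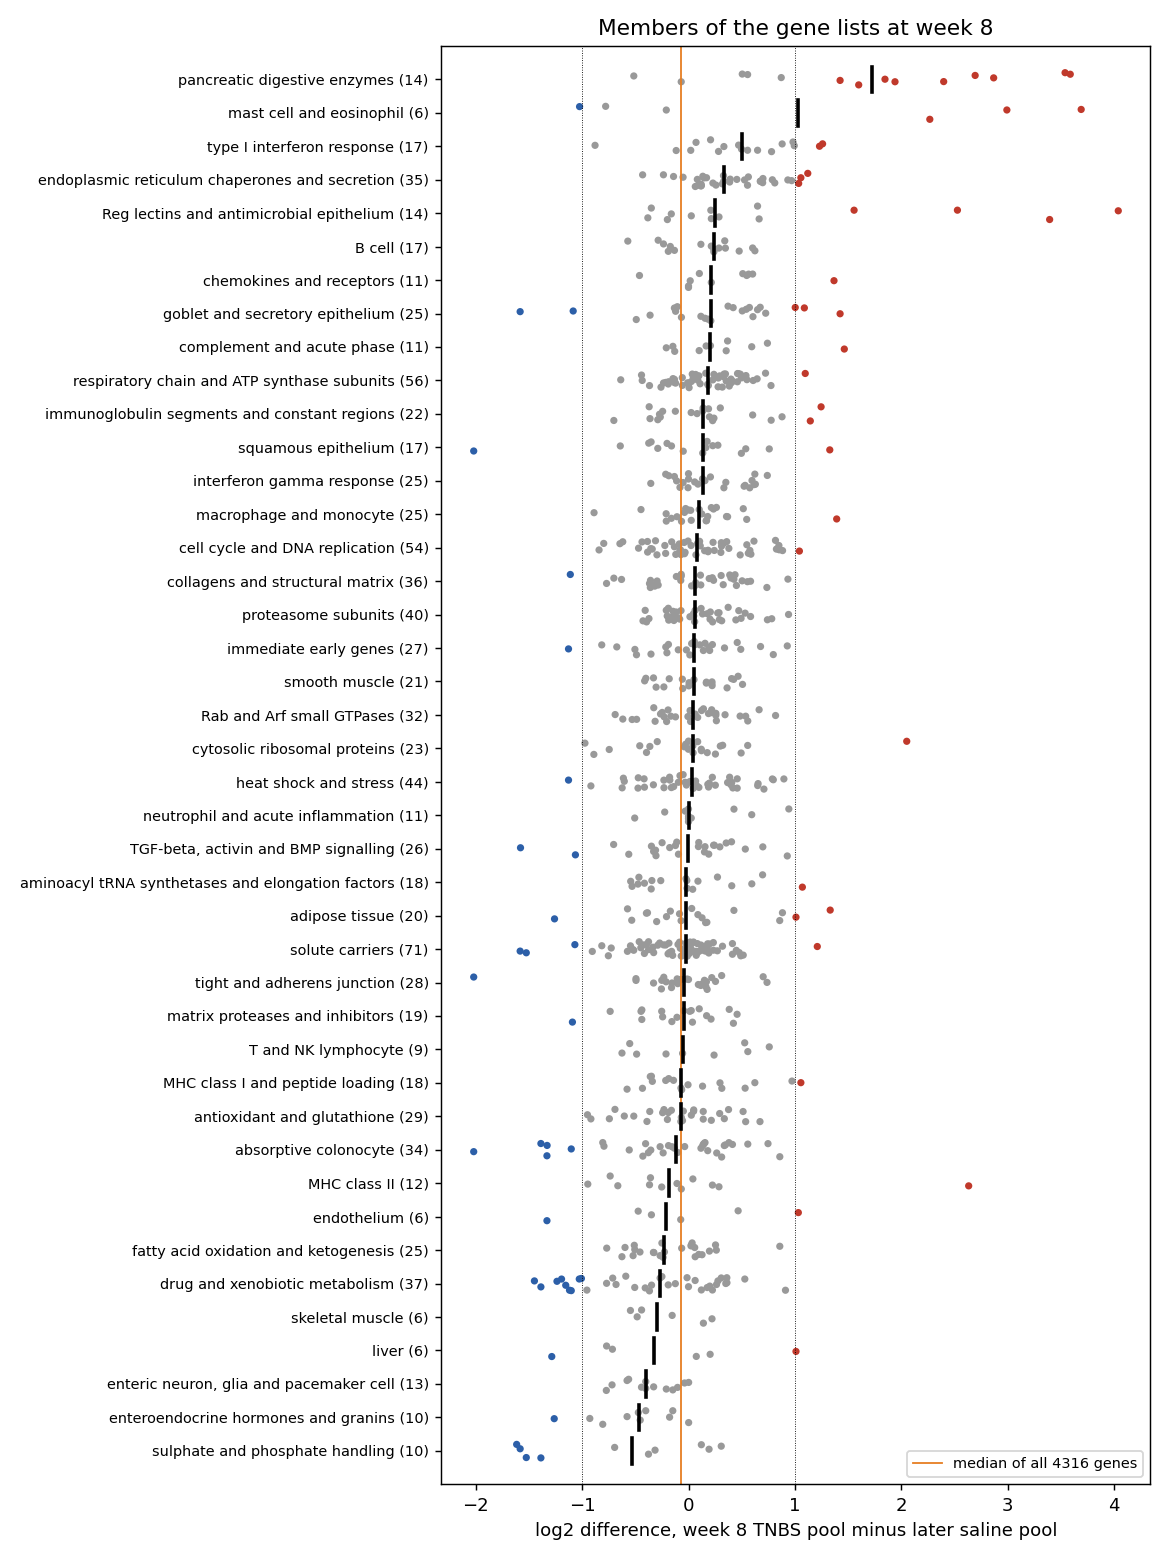
Log2 difference between the week 8 TNBS pool and the later saline pool (horizontal axis) for the measured members (points) of 42 gene lists (vertical axis, number of members in brackets), with black bars at list medians, an orange line at the median of all genes and dotted lines at 2-fold. Pancreatic enzymes lie highest, with a median of 1.72, and sulphate and phosphate genes lowest, with -0.54.

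Several further epithelial and other genes were among the largest differences. Plet1, a surface protein of colon progenitor and repairing epithelium, read 508 and 520.5 on the week 6 saline arrays and 742 in the later saline pool, and 2358, 2664, 1403 and 494 in the TNBS pools of weeks 6, 8, 10 and 12. The week 8 pool was the highest array, 3.59-fold above the later saline pool. Ceacam10, a secreted carcinoembryonic antigen relative, read 872 at week 8 against 273 in the later saline pool, with 525, 524 and 193 in the TNBS pools of weeks 6, 10 and 12 and 219 and 169 on the week 6 saline arrays, or 3.20-fold higher. The second probe set of Ceacam10 read 210 against 127, a log2 difference of 0.73 and so under 2-fold. Cd55, which protects cells from complement, was 2.76-fold higher at 226 against 81.9, Sprr1a, a cornified envelope protein, 2.51-fold at 299 against 119, and Scd1, a fatty acid desaturase, 2.52-fold at 1224 against 486. Krt1, Krt5 and Krt14, defining keratins of squamous epithelium, read 23.8, 19.3 and 20.9 at week 8, under the floor. The haemoglobin gene Hbb-b2 read 145 and 149 on the week 6 saline arrays and 124 in the later saline pool, and 119, 468, 170.4 and 71.1 in the TNBS pools of weeks 6, 8, 10 and 12. It was 3.79-fold higher at week 8, Hba-a1, an alpha globin, read 1231 against 605, and the amount of blood in the tissue was not tested. Psap, the lysosomal saposin precursor, read 685 at week 8 against 1363 in the later saline pool, with 1552, 1646 and 1517 in the TNBS pools of weeks 6, 10 and 12 and 1633 and 1377 on the week 6 saline arrays, and its week 8 value was the lowest of the 7.

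A few bright genes were highest on the week 6 arrays of both treatments. Rpl41, a ribosomal protein, read 11414 and 9879 on the week 6 saline arrays and 1109 in the later saline pool, and 10655, 4600.0, 2162 and 1080.1 in the TNBS pools of weeks 6, 8, 10 and 12. At week 8 it was 4.15-fold above the later saline pool and below all 3 week 6 arrays. Eef1a1, the translation elongation factor, had the same order, with 7310.2 against 3480.3 in the week 8 and later saline pools and 9330.0 and 8602 on the week 6 saline arrays. The list of 23 cytosolic ribosomal protein genes had no other 2-fold member and a median of 0.04, and -0.03 with the week 6 saline pool as control.

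The week 6 comparison, 3 days after the enemas, shares no sample with that of week 8. There, 110 genes (2.55%) were 2-fold higher than in the week 6 saline pool and 43 (0.996%) were 2-fold lower. Of the 66 genes higher at week 8, 23 were also higher at week 6, which is 34.8% of the week 8 list and 20.9% of the week 6 list. They included Mcpt1, Mcpt2, Reg3b, Prss2 and Plet1, which the preceding paragraphs describe. Of the genes lower at week 8, 5 were also lower at week 6, or 6.49% and 11.6%. Defa23 and Pnliprp2 were 2-fold higher at week 8 and 2-fold lower at week 6, and Lama3 and Sgip1 the reverse. The comparisons of weeks 10 and 12 use the same later saline pool as week 8. They had 36 (0.834%) and 31 (0.718%) genes higher and 28 (0.649%) and 38 (0.880%) lower. Set side by side, the median of the pancreatic list was 0.18, 1.72, -0.10 and -0.23 at weeks 6, 8, 10 and 12. For the endoplasmic reticulum list it was 0.10, 0.33, -0.11 and -0.10, and for the type I interferon list 0.56, 0.50, -0.27 and -0.31. Without Tff2, the pancreatic median at week 8 was 1.85. Members of the pancreatic list differed widely at week 6. Prss2, Ctrb1, Cel, Cela2a and Pnliprp1 had log2 differences of 4.49, 3.40, 2.41, 2.40 and 2.38 there. Ctrl had 0.77, Clps -0.04 and Pnliprp2 -1.03. Tff2 was under the floor on every week 6 array, so that its 0 is no measured value. Some of these values are bounds, since a week 6 saline array was under the floor for Prss2, Cela2a, Pnliprp1 and Ctrl and the TNBS pool for Pnliprp2.

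The week 8 pool was also tested against the 3 other TNBS pools with limma, a fit in which the lone pool is assumed to vary like the others and change over time is part of the spread. No gene of 4316 passed an adjusted p of 0.05 (0.00%), and 348 (8.06%) had an unadjusted p under 0.05 in limma, 164 higher and 184 lower. Defa23 came nearest, higher by 3.62 ± 0.31 (log2, SE, 1 pool against 3), with an adjusted p of 0.0661 in limma. The week 6 and week 12 pools were under the floor for Defa23, at 29.7 and 8.3, so that this difference is a lower bound and its SE is set in part by the floor. Next to it were the interferon genes Ifi27l2a, higher by 1.79 ± 0.25, and Usp18, higher by 2.05 ± 0.33, and Wdr5, a subunit of histone methyltransferase complexes, with -1.63 ± 0.26, each with a limma adjusted p of 0.494. Among secretory genes Agr2 differed by 1.30 ± 0.24 and Hspa5 by 1.37 ± 0.28, with limma adjusted p of 0.568 and 0.584. Adh1 and Psap were lower, at -1.05 ± 0.23 and -1.20 ± 0.22, with limma adjusted p of 0.584 and 0.494. All 17 type I interferon genes lay above the mean of the other TNBS pools, beside 1875 of all 4316 genes. The same held for 29 of the 35 endoplasmic reticulum genes and 12 of the 14 pancreatic genes. Tff2, 1 of these 12, passed the filter through the week 8 pool alone and had to be high there. Mcpt1 and Reg3b, which varied widely among the other pools, had SEs of 1.65 and 1.52. Without the week 12 pool Defa23 passed, with a limma adjusted p of 0.0201, and was the 1 gene to do so. The same was seen when genes needed a mean signal of at least 100, with a limma adjusted p of 0.0346 for Defa23.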

How the data were processed

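RNA of 6 pools was measured on 7 Affymetrix arrays. Per the labels, the authors computed a linear intensity for each probe set with Microarray Suite 5.0 and scaled arrays to a target of 150. Of 12488 probe sets, 66 controls were left out, and 10833 with 1 gene symbol in the platform annotation were used. Each gene took its probe set of highest mean log2 signal, which left 8251 genes. Signals under 50 were set to 50, and a gene needed 100 or more in its highest pool, as 4316 did. Where one side is at the floor, the fold is a lower bound. Arrays have no depth, and with 1 pool a group there is no test against saline, so genes were counted at 2-fold. limma 3.58.1 in R 4.3.3 (intensity trend, two-sided, Benjamini-Hochberg over 4316 genes, threshold 0.05) compared the week 8 pool with the other TNBS pools. A run on simulated data checked that planted differences were estimated near their size. How many of them the fit would call is not given here, so that the absence of calls does not show that no gene differs. p-values measure the spread between pools, not mice. Detection calls were not used here.

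The 42 lists held 2055 symbols, 1706 of them on the array. The members and lists were chosen with earlier results of these data known. Genes were named by a rule: the 15 largest differences each way above the floor, 10 each way at the floor, all 2-fold members of a list or else its 4 largest, the 8 genes each way farthest from the other arrays, and the 10 each way of smallest p in the limma fit. Unnamed clones were left out. Members given for their role outside the rule were chosen after their values were seen. Promoters and symbols came from RefSeq on GRCm38.p6. Alternatives covered the floor, pseudocount, probe set rule, scaling, filter, fold, control pool and each pool left out, and 3 more were chosen after seeing the data: lowess centring (fraction 0.3), a mean of 200, and agreement of all probe sets.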

Additional observations from a re-analysis of the deposited data

Results flagged for a closer look

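For 4 genes the pools of weeks 6 and 8 differed at least 2-fold from their own saline pools in opposite directions, and this difference between the times was not tested. Defa23, an alpha-defensin, had a log2 difference of 3.73 at week 8 and -2.14 at week 6, 5.87 apart, with signals of 664 at week 8, 29.7 at week 6, 34.2 in the later saline pool, and 222 and 218 on the week 6 saline arrays. Pnliprp2, a lipase, had 1.94 at week 8 and -1.03 at week 6, 2.98 apart, with signals of 204 and 44.4 in these TNBS pools. The week 6 TNBS pool was under the floor for Defa23 and Pnliprp2, and the later saline pool for Defa23. The differences that these pools enter are bounds. Lama3, a laminin chain, had -1.11 at week 8 and 1.13 at week 6, a difference of -2.24, with signals of 70.4 and 341. Sgip1, an endocytic adaptor, had -1.29 at week 8, where it was under the floor, and 2.01 at week 6, a difference of -3.30, with signals of 14.9 and 225.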

How the results depend on the processing

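The count of lower genes, 77, depended more on the settings than that of higher genes, 66. Lower genes numbered 28 with a floor of 100, 19 with log2(value + 50), 32 with equal medians, 47 after quantile normalization, 139 with the week 6 saline pool as control, 422 at 1.5-fold and 3 at 3-fold. Among alternatives chosen after seeing the data, they numbered 35 after lowess centring, 20 for genes of mean signal 200 or more and 50 where every probe set agreed. Higher genes numbered 116 with equal medians, 142 with the week 6 saline pool, 283 at 1.5-fold, 23 at 3-fold and 32 at a mean of 200 or more. Genes 2-fold different the same way at weeks 6 and 8 numbered 28, and 17 with log2(value + 50), 157 at 1.5-fold and 13 at 3-fold, with 30 when either week 6 saline array was left out. The limma fit called 0 genes, 0 to 1 when a TNBS pool was left out (1, Defa23, without week 12), 1 for genes of mean 100 or more (Defa23 again) and 58 with no filter, of which 54 were at the floor in all 3 other TNBS pools.

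With the week 6 saline pool as control, 15 of the 42 list medians changed sign. For 5, both medians lay farther from 0 than 0.0757, the SD of list medians between the duplicate saline arrays: goblet (-0.14), fatty acid oxidation (0.16), complement (-0.19), squamous epithelium (-0.16) and immunoglobulin genes (-0.43). Among named genes past 2-fold against either control, Rpl41 (-1.21), Spink4 (-0.25) and Eef1a1 (-0.29) changed sign. The liver median changed sign, to 0.14, for genes of mean 100 or more. The cause was not tested. Of the 87 named genes that differed 2-fold, 28 stayed past 2-fold in the same direction under every setting run for them. No paired analysis was possible because each group is 1 pool, so that groups share fewer than 2 replicate numbers. Dim signals limit both sides, since 16 of the 77 lower genes were under the floor at week 8 and 13 of the 66 higher genes in the later saline pool.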

Other observations

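Probe sets that the annotation gives to several alpha-defensin symbols, left out of the gene counts and chosen here after their values were seen, behaved alike. The 4 of them read between 309 and 549 at week 8, 84.1 and 242 on the week 6 saline arrays and 64.5 or below on the 4 other arrays. Mmp7, the metalloprotease that activates alpha-defensins in Paneth cells, read 3.2 at week 8 and 3.2 in the later saline pool. Of 3 haemoglobin probe sets with several symbols, the brightest read 2274 at week 8, 790 in the later saline pool and between 362 and 1099 on the other arrays. Emp1, an epithelial membrane protein, also chosen after its values were seen, read 4602 at week 8, 2235 in the later saline pool and between 789 and 1770 on the other arrays. Limk1, a kinase of actin remodelling, was higher at week 8 than in the later saline pool, 177 against 59.6, but read 459 and 290 on the week 6 saline arrays.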
